A study of Mus musculus with 18 samples.

Results

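The genes described here encode the proteins of the mitochondrial ribosome. They were taken by name, as every protein-coding gene whose symbol is Mrpl or Mrps followed by a digit. 78 of the 33440 genes in the tables met this rule. 49 carry the large-subunit symbol Mrpl and 29 the small-subunit symbol Mrps. All 78 passed the filter on low counts in both comparisons. The symbols do not quite match the ribosome: Mrps30 and Mrps18a are known to sit in the large subunit, and Mrps36 is known as a component of the 2-oxoglutarate dehydrogenase complex. By place, 51 of the products therefore belong to the large and 26 to the small subunit.

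The study asked how the transcription factor IRF3 acts in mouse adipocytes. Its RNA-seq data come from 2 experiments with 18 libraries in all. In the first, stromal vascular fraction (SVF) cells of inguinal fat from mice with the Cre-activated, constitutively active IRF3-2D allele were differentiated to adipocytes in culture. 3 FI3OE libraries came from cells given AAV-Cre and 3 WT libraries from cells of the same kind given AAV-GFP, so that the WT cells hold the silent allele and the arms differ in Cre as well. In the second, translating ribosome affinity purification (TRAP) was used to recover ribosome-bound adipocyte RNA from epididymal fat of Ad-NuTRAP reporter mice fed a high-fat diet for 8 weeks at thermoneutrality. 6 FI3KO libraries came from mice whose floxed Irf3 was deleted by Adipoq-Cre and 6 WT libraries from reporter mice with intact Irf3, and the NuTRAP tag in both is itself switched on by Adipoq-Cre. The labels call the libraries biological replicates. How many mice or wells stand behind each was not given in the sources used here, so the spread between libraries may in part be technical.

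Mitochondria translate their own small set of mRNAs, all for respiratory chain and ATP synthase proteins, on a ribosome of bacterial descent. Its rRNAs come from mitochondrial DNA, whereas all of its proteins are encoded in the nucleus, made in the cytosol and imported. Many of these proteins have bacterial counterparts, and the others are found only in mitochondria. In adipocytes, mitochondrial mass and translation are known to change with differentiation, diet and thermogenic state. NRF1, GABP and YY1 are known regulators of nuclear genes for mitochondrial proteins.

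Total reads ranged from 21541334 to 36932452 in the SVF libraries and from 25259869 to 40490283 in the TRAP libraries, and the 78 genes took 0.163 to 0.197% of them, or 35158 to 70833 reads per library. Irf3 ranged from 91.4 to 102 normalised CPM (counts scaled to the library's effective total) in FI3OE and from 56.8 to 57.9 CPM in WT SVF-derived adipocytes, without overlap. In TRAP it ranged from 12.5 to 19.97 CPM in FI3KO and from 16.4 to 22.8 CPM in WT, with overlap. By the chi-square per degree of freedom between pairs of libraries, FI3KO replicates 1 and 2 differed from replicates 3 to 6 by 110.7 to 267.9, and replicates 3 to 6 among themselves by 16.9 to 86.3. WT replicates 1 and 2 differed from replicates 3 to 6 by 74.4 to 129.9, which was no clear separation, since replicates 3 to 6 differed among themselves by 8.41 to 126.3. WT replicates 1 and 2 were the closest pair of TRAP libraries (2.54). Over the 78 genes alone this pair had a value of 1.17, within sampling noise, but over all genes they differed by more, and they were counted as 2 samples. The TRAP counts of members, the gene lists and several leading members are also given for replicates 3 to 6 and for replicates 1 and 2 apart. 12 of 12 adipocyte markers were measured in both experiments. The SVF cultures also held 12779 to 13894 CPM of 8 preadipocyte and fibroblast markers and 1970 to 2212 CPM of 12 macrophage markers. In such bulk RNA, fewer cells of a type and less RNA per cell cannot be told apart.

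RefSeq promoter windows of the GRCm38.p6 build, reaching from 250 bases before to 50 bases after the annotated start, were at hand for 69 of the 78 genes. The motif searches were of both strands. The ETS motif CCGGAAG, to which GABP binds, was in 25 windows (36.2%), against 12.3% of 16514 windows of protein-coding genes. The NRF1 motif GCGCANGCG was in 16 windows (23.2% against 9.19%) and the YY1 motif AAGATGG in 13 (18.8% against 6.43%). The TATA box letters TATAAA were in 4 windows (5.80% against 12.9%), and the IRF motif GAAANNGAA in 7 (10.1% against 8.33%). Any of the ETS, NRF1 and YY1 motifs was in 43 windows (62.3%, against 24.5% of protein-coding windows). These are matches of letters, not binding sites. The 69 windows held a median of 21 CpG (a C followed by a G), against 14 in protein-coding windows. The part of this in the motif shares was not tested. In the GENCODE M21 annotation, 23 of the 78 genes (29.5%) had a protein-coding neighbour on the opposite strand that starts within 1000 bases upstream or overlaps by at most 250 bases, against 8.32% of 22028 protein-coding genes. Examples were Mrpl49 with Fau, Mrpl36 with Ndufs6, Mrpl32 with Psma2 and Mrps27 with Ptcd2.

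3 upstream stretches are shown because they belong to genes that the results turn on. Each ends just before the annotated start, holds no annotated exon, and reads 5′ to 3′ on the gene's strand, with motif matches in capitals. Mrps15 had the highest fold change in TRAP, and its stretch (plus strand, chr4:126046775-126046924) held none of these 3 motifs. Mrpl9 had the smallest adjusted p of the family in TRAP, and its stretch (plus strand, chr3:94443168-94443317) ended in 2 overlapping matches to the NRF1 motif. Mrps27 was called lower in FI3OE and higher in FI3KO, the latter in replicates 3 to 6 but not in replicates 1 and 2. Its stretch (plus strand, chr13:99344706-99344785), which fills the gap to Ptcd2, held a match to the ETS motif on the other strand.
Mrps15: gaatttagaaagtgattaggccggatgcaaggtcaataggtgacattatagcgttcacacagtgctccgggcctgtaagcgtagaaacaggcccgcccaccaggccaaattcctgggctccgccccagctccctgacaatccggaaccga
Mrpl9: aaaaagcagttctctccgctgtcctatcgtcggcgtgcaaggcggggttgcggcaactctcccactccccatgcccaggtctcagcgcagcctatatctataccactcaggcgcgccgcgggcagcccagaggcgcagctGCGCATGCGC
Mrps27: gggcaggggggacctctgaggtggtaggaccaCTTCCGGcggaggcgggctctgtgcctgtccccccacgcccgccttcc

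In SVF-derived adipocytes, mitochondrial ribosomal protein mRNAs changed little, and more of them rose than fell with active IRF3. 21 of the 78 genes were higher in FI3OE and 5 were lower (edgeR quasi-likelihood test, adjusted p at most 0.05), and 52 were not called. Over all 16105 genes tested, 20.2% were called higher and 16.8% lower. The median log2 fold change of the 78 genes was 0.09, against -0.005 for all genes, and 55 of the 78 were above 0. The fold changes ran from -0.28 to 0.51 on the log2 scale, so no member passed the study's cutoff of a log2 fold change of 1, which 3.62% of all genes tested passed. In 28 members the 3 FI3OE libraries lay above all 3 WT libraries and in 11 below, against 25.7% and 23.8% of all genes. The count of higher members was 9 without FI3OE replicate 2, 11 without WT replicate 1 and 12 without WT replicate 2. DESeq2 called 7 higher and 1 lower, a transcript length offset left 6 and 3, and protein-coding transcripts alone gave 11 and 5. The share of the members' reads in retained-intron transcripts was 8.92 to 9.55% in FI3OE and 9.83 to 10.5% in WT, without overlap. In transcripts annotated for nonsense-mediated decay it went the other way, at 5.02 to 5.23% and 4.56 to 4.99%, also without overlap. Over all coding genes, protein-coding transcripts held 91.7 to 91.9% and 91.1 to 91.6% of reads, also without overlap, and the part of these shares in the counts was not tested. With upper-quartile scaling 10 were higher and 8 lower, so that the higher share of calls went from 80.8% to 55.6%.

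The leading members of each comparison were named only among called members without overlap between the groups. Their lack of overlap is therefore no added support. Mrpl27, a large-subunit protein of bacterial type known to lie near the peptidyl transferase centre, had the largest rise. It stood at 27.3, 26.6 and 25.1 CPM in the FI3OE libraries and at 18.6, 19.0 and 17.8 CPM in WT. Each FI3OE library was above every WT library (log2 fold change 0.51 ± 0.06 SE, edgeR adjusted p = 3.57e-05). Mrps7, which sits in the head of the small subunit, was at 36.5, 39.8 and 35.3 CPM in FI3OE and at 29.5, 30.1 and 28.9 CPM in WT. The groups did not overlap (0.33 ± 0.06 SE, edgeR adjusted p = 0.000593). Of the 26 calls, those of Mrpl27 and Mrps7 alone were kept in all 17 alternative fits.

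Mrps18c, one of 3 mammalian versions of a single bacterial small-subunit protein, was at 12.0, 12.5 and 12.1 CPM in FI3OE. In WT it was at 8.75, 7.41 and 10.5 CPM, a wider spread that still lay below every FI3OE library (0.45 ± 0.11 SE, edgeR adjusted p = 0.00948). Its relative Mrps18b moved the other way, from 39.7, 40.6 and 42.3 CPM in WT to 35.8, 38.1 and 36.1 CPM in FI3OE (-0.16 ± 0.05 SE, edgeR adjusted p = 0.0230). Mrps18a, the version in the large subunit, was not called (0.15 ± 0.07 SE, adjusted p = 0.131), although its FI3OE values of 15.4, 16.4 and 15.4 CPM were all above the WT values of 13.4, 14.3 and 14.9 CPM. The 3 versions thus had different calls in the same cells. The differences among them were not tested.

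Other named rises were in large-subunit proteins. Mrpl53, a mitochondria-specific protein, was at 14.5, 14.4 and 12.2 CPM in FI3OE and at 10.9, 9.12 and 11.8 CPM in WT (0.37 ± 0.11 SE, edgeR adjusted p = 0.0191). An annotated gene on the same strand, Gm42688, contains its whole transcript, so the split of reads between them is uncertain. Mrpl54, also mitochondria-specific, rose by 0.29, and Mrpl14, Mrpl13 and Mrpl49 rose by 0.26, 0.25 and 0.25 on the log2 scale (adjusted p from 0.0124 to 0.0426). Mrpl14 and Mrpl13 are of bacterial type. All of these had FI3OE libraries above every WT library, which was a condition for naming them.

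**Figure D1:**
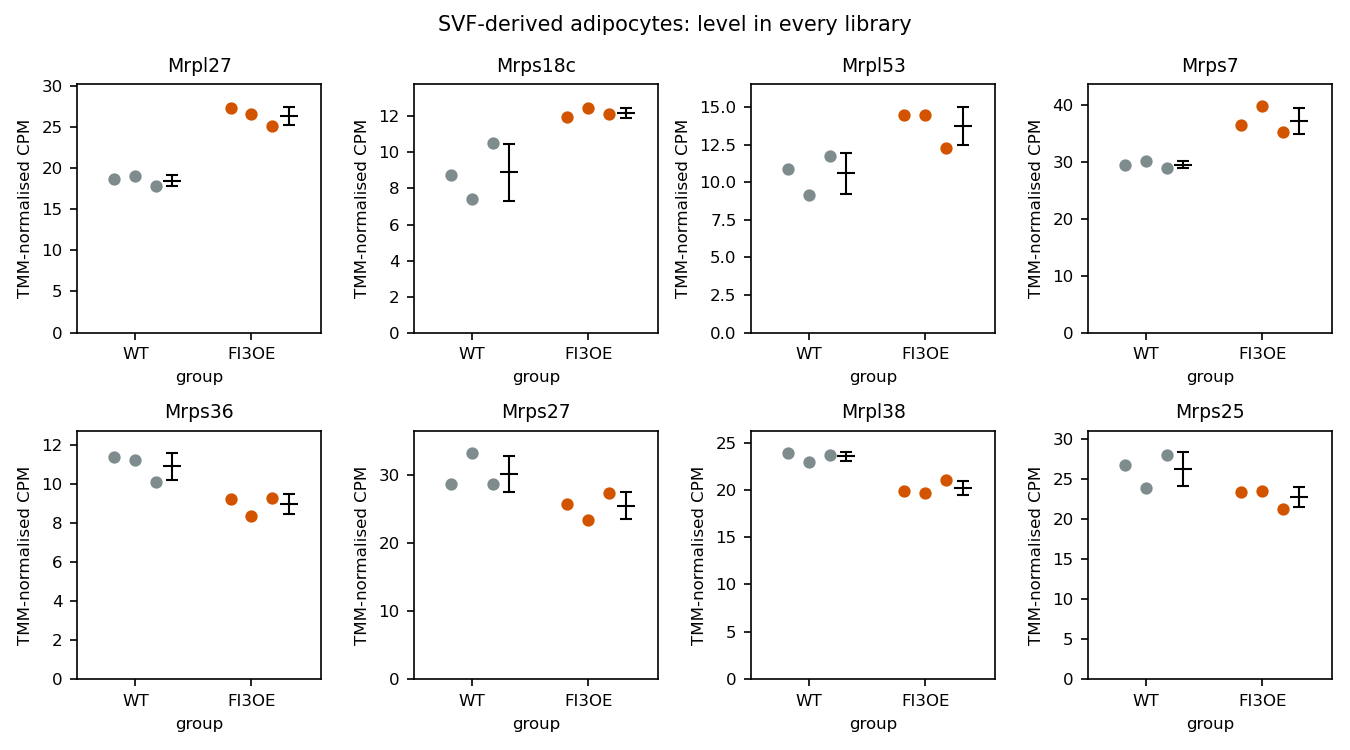
TMM-normalised CPM (y axis, from 0) of 8 named genes in each WT (grey) and FI3OE (orange) library of SVF-derived adipocytes, with the mean and SD (n = 3) in black beside the points. Upper row, genes higher in FI3OE, led by Mrpl27 at 25.1 to 27.3 CPM against 17.8 to 19.0 in WT; lower row, genes lower in FI3OE.

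The 5 falls were small. Mrps36 was at 9.21, 8.38 and 9.30 CPM in FI3OE and at 11.4, 11.2 and 10.1 CPM in WT (-0.28 ± 0.09 SE, edgeR adjusted p = 0.0305), and it is the member whose product is not held to be a ribosomal protein. Mrps27, a pentatricopeptide repeat protein, was at 25.7, 23.4 and 27.3 CPM in FI3OE and at 28.7, 33.2 and 28.7 CPM in WT (-0.24 ± 0.07 SE, edgeR adjusted p = 0.0250). Mrpl38 fell by 0.22 (edgeR adjusted p = 0.00928) and Mrps25 by 0.21 (edgeR adjusted p = 0.0306) on the log2 scale. In each of the 5, including Mrps18b, every FI3OE library lay below every WT library. Mrps25 shares 4590 exon bases with Nr2c2 on the opposite strand, and the library kit did not keep strand, so reads of the pair cannot be told apart there. Without FI3OE replicate 2 or 3, or without any one of the WT replicates, 3 members were called lower.

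The mitochondrial mRNAs that these ribosomes translate were lower in the same FI3OE libraries. All 13 protein-coding mRNAs of mitochondrial DNA were called lower, with a median log2 fold change of -0.95, and their summed level was 10267 to 11725 CPM in FI3OE against 21115 to 23068 CPM in WT. Nuclear-encoded respiratory chain genes had 13 of 82 called higher (15.9%) and 16 lower (19.5%), against 20.2% and 16.8% of all genes, with a median of -0.01. Cytosolic ribosomal protein genes had 5 of 78 called higher and 12 lower, with a median of -0.04. The summed level of the 78 mitochondrial ribosomal protein genes was 1704 to 1753 CPM in FI3OE and 1628 to 1671 CPM in WT, without overlap.

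Lists of genes that act around the mitochondrial ribosome were counted in the same FI3OE and WT cells. Of 5 mitoribosomal proteins with other symbols, Ptcd3, known to lie at the mRNA entry of the small subunit, fell from 86.1, 83.9 and 83.8 CPM in WT to 73.5, 69.4 and 77.96 CPM in FI3OE (-0.20 ± 0.05 SE, edgeR adjusted p = 0.00483). None of the 5 was called higher by edgeR, none had an unadjusted p under 0.05 in that direction, and DESeq2 called 0 higher. The GTP-binding Dap3 had a log2 fold change of 0.00, whose sign changed with the scaling, Chchd1 of 0.08, Aurkaip1 of 0.12 and Gadd45gip1 of 0.03. Mitochondrial translation factors had 2 of 19 called higher (10.5%) and 4 lower (21.1%), and assembly factors 4 of 35 higher (11.4%) and 10 lower (28.6%), against 20.2% and 16.8% of all genes. Among the factors, Mrm2, an rRNA methyltransferase, rose by 0.37, Coa3 by 0.31, Mterf4, which acts in large-subunit assembly, by 0.29, Slirp by 0.23 and Trmt2b by 0.17 on the log2 scale. Fastkd1, a mitochondrial RNA-binding protein, fell by 0.72, Mettl17 by 0.40, the GTPase Noa1 by 0.40, C1qbp by 0.39 and the rRNA dimethyltransferase Tfb1m by 0.37. Of 17 alternative fits, Slirp was called in 7, Mrm2 in 10, Mterf4 and Trmt2b in 12 each, Tfb1m in 13 and Mettl17 in 14. Coa3, Fastkd1, Noa1 and C1qbp were called in all 17. Of 16 genes for the upkeep and transcription of mitochondrial DNA, 2 rose and 7 fell, and Tfam, the packaging and transcription factor of mitochondrial DNA, was among the rises (0.24 ± 0.06 SE, edgeR adjusted p = 0.00711).

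Of 11 genes for regulators of mitochondrial biogenesis, 7 were called lower in FI3OE and 0 higher by edgeR, with 1 at an unadjusted p under 0.05 in the higher direction and 0 higher by DESeq2. That is 63.6% lower, against 16.8% lower and 20.2% higher over all genes tested, which are also the shares to set beside the marker counts that follow. Ppargc1b, a coactivator of mitochondrial biogenesis, fell from a mean of 19.6 to 10.6 CPM (-0.88 ± 0.12 SE, edgeR adjusted p = 0.000143). Myc fell by 0.57, Atf4 by 0.41, Ppargc1a by 0.21, Gabpa by 0.19, Nrf1 by 0.17 and Yy1 by 0.12 on the log2 scale. DESeq2 called 5 of the 11 lower. Of 17 alternative fits, Ppargc1a was called in 7, Nrf1 in 10, with its sign turned to 0.05 under a transcript length offset, and Yy1 in 11. Esrra had a log2 fold change of -0.39 with an SE of 0.39 and was not called. Macrophage and fibroblast marker sums differed between the groups in these cultures (macrophage 1970 to 2001 CPM in FI3OE and 2078 to 2212 CPM in WT, fibroblast 12779 to 12980 and 13320 to 13894 CPM), with 2 of 12 and 2 of 8 markers called higher and 3 and 2 lower. Adipocyte marker sums were 11301 to 11433 CPM and 11840 to 11905 CPM, with 3 of 12 markers called higher and 5 lower. Cycling-cell marker sums were 42.0 to 49.8 CPM in FI3OE and 34.8 to 40.2 CPM in WT, with 2 of 6 markers called higher and none lower by edgeR, by DESeq2 or at an unadjusted p under 0.05. Their part in the values above was not tested.

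**Figure D2:**
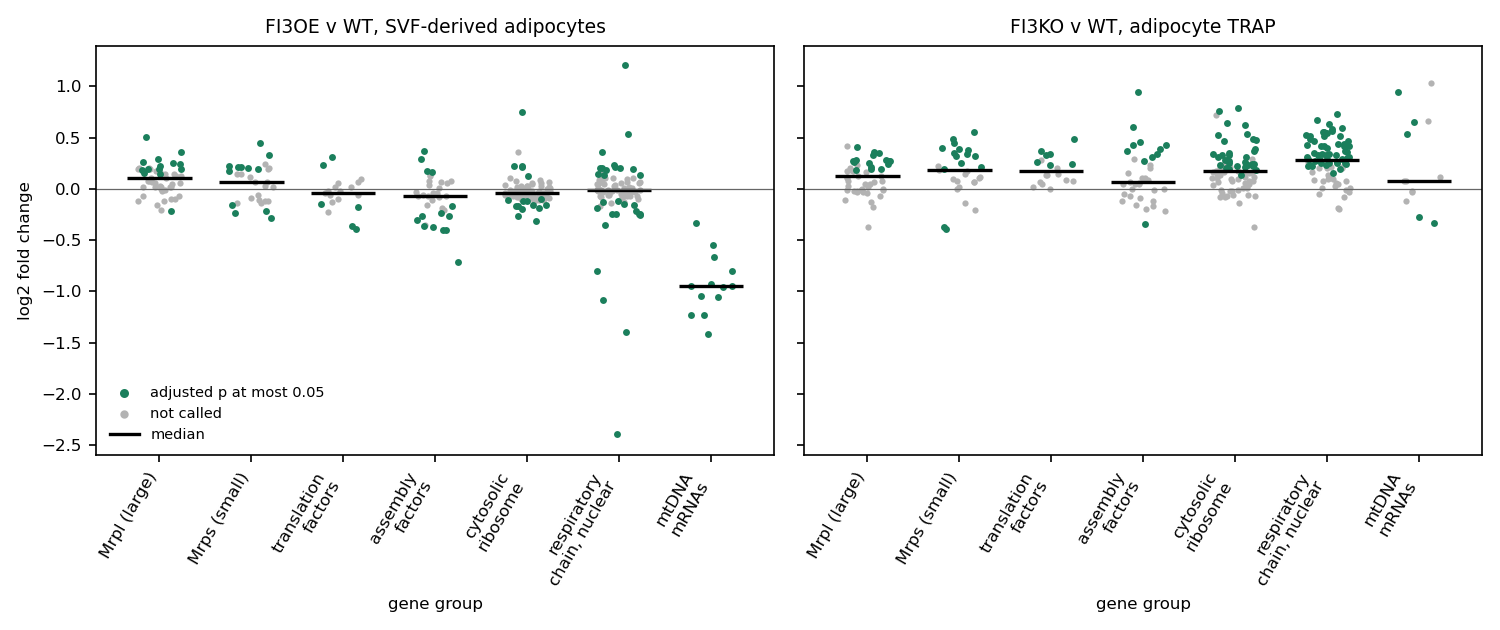
Log2 fold change (y axis) of every tested gene of 7 groups (x axis) in the SVF comparison (left) and the TRAP comparison (right), with genes at an edgeR adjusted p of at most 0.05 in green, the others in grey and the group median as a black line. The Mrpl and Mrps genes stay within 0.6 of 0 in both panels, whereas the 13 mRNAs of mitochondrial DNA have a median of -0.95 in the SVF comparison. In TRAP these 13 mRNAs sum to at most 264 CPM per library.

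In adipocyte TRAP, more mitochondrial ribosomal protein mRNAs were called higher than lower in FI3KO, and most were not called. 29 of the 78 genes were higher and 2 lower, and 47 were not called. Over all 13624 genes tested, 19.1% were called higher and 18.3% lower. The median log2 fold change of the 78 genes was 0.15, against 0.02 for all genes, and 60 of the 78 were above 0. Again no member passed a log2 fold change of 1, which 6.61% of all genes tested passed. In 17 members every FI3KO library lay above every WT library, against 7.47% of all genes, and in 0 members below, against 8.53%. In replicates 3 to 6 alone 29 members were called higher and 4 lower, with a median of 0.17, against 25.7% and 24.8% of all genes called there. In replicates 1 and 2 alone the median was 0.12 and 55 members were above 0, but edgeR called 0 in either direction, against 1.58% of all genes higher and 1.98% lower. At an unadjusted p under 0.05, 17 were higher and 1 lower in that set, against 14.9% and 14.2% of all genes. Processed transcripts held 4.45 to 4.86% of the members' reads in FI3KO and 3.96 to 4.36% in WT, without overlap, and their part in the counts was not tested. The count of members lower was 1 without WT replicate 3, 4, 5 or 6. With WT replicates 1 and 2 summed into 1 library, a fit chosen after seeing the data, 25 were higher and 3 lower. Blocking on replicate number, which did not pair the samples, gave 17 higher and 1 lower.

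Mrps15, a small-subunit protein of bacterial type, had the largest rise. It ranged from 10.6 through a median of 11.6 to 14.2 CPM in FI3KO and from 6.51 through 8.54 to 9.13 CPM in WT. The groups did not overlap, as the rule for naming required (0.55 ± 0.10 SE, edgeR adjusted p = 0.00122). The difference was larger in replicates 3 to 6 (0.67) than in the first pair (0.34) on the log2 scale. Mrps35, mitochondria-specific, ranged from 14.4 through 17.3 to 19.5 CPM in FI3KO and from 11.03 through 11.9 to 13.8 CPM in WT (0.49 ± 0.09 SE, edgeR adjusted p = 0.00156). The later and the earlier set of replicates gave 0.51 and 0.45.

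Mrpl9, a large-subunit protein of bacterial type, had the smallest adjusted p of the family. It ranged from 36.5 through 38.8 to 42.8 CPM in FI3KO and only from 28.03 through 30.2 to 30.6 CPM in WT (0.41 ± 0.05 SE, edgeR adjusted p = 0.000214), with 0.42 in the later and 0.38 in the earlier replicates. Mrpl11, known to lie at the base of the stalk where translation factors bind, ranged from 15.8 through 18.2 to 19.7 CPM in FI3KO and from 12.6 through 14.0 to 15.2 CPM in WT (0.36 ± 0.07 SE, edgeR adjusted p = 0.00180), with 0.43 and 0.24 by set. Mrps34 ranged from 33.7 through 35.3 to 37.4 CPM and from 25.6 through 27.9 to 30.1 CPM (0.34 ± 0.05 SE, edgeR adjusted p = 0.000590), with 0.38 and 0.26 by set. It shares 763 exon bases with Nme3 on its own strand, a gene that rose by 1.31 on the log2 scale. Mrps34 also shares 1309 exon bases with Mapk8ip3 on the opposite strand, where the unstranded kit cannot tell reads of the pair apart. The part of shared reads in the Mrps34 value was not tested.

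Mrps24 ranged from 16.9 through 18.6 to 19.9 CPM in FI3KO and from 11.8 through 13.6 to 15.0 CPM in WT (0.45 ± 0.08 SE, edgeR adjusted p = 0.000846), with 0.52 and 0.34 by set. Over protein-coding transcripts alone its log2 fold change was larger, at 0.71, but it was not called (edgeR adjusted p = 0.296). Mrpl51 ranged from 43.5 to 57.4 CPM in FI3KO and from 35.6 to 41.8 CPM in WT over all transcripts (0.35 ± 0.08 SE, edgeR adjusted p = 0.00360), with 0.35 and 0.37 by set. Over protein-coding transcripts alone Mrpl51 was at 0.18 and was not called (edgeR adjusted p = 0.185). Mrps18c rose here too, from a WT range of 7.76 to 9.54 CPM to 9.82 to 12.2 CPM (0.39 ± 0.08 SE, edgeR adjusted p = 0.00296), with 0.43 and 0.32 by set. Mrps18a (0.23, adjusted p = 0.0559) and Mrps18b (-0.20, adjusted p = 0.0839) were not called. Of the 31 calls, 9 were kept in all 26 alternative fits other than that of replicates 1 and 2 alone: Mrpl9, Mrpl11, Mrpl24, Mrpl45, Mrps15, Mrps18c, Mrps21, Mrps34 and Mrps35.

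Mrpl12, the stalk protein that is also known to bind mitochondrial RNA polymerase, rose from 38.1 to 44.6 CPM in WT to 45.7 to 59.7 CPM in FI3KO (0.26 ± 0.08 SE, edgeR adjusted p = 0.0184), with 0.25 and 0.30 by set. Mrpl57 rose by 0.22, without overlap between the groups. Mrpl58, the peptidyl-tRNA hydrolase of the large subunit, had a log2 fold change of 0.05, Mrps30 of 0.14 and Mrps36 of 0.07, and none of these was called.

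The 2 members called lower, Mrps6 and Mrps22, overlapped between the groups and were singled out after their values were seen. Mrps6 ranged from 58.6 through 85.0 to 99.3 CPM in FI3KO and from 94.4 through 105 to 122 CPM in WT (-0.39 ± 0.12 SE, edgeR adjusted p = 0.0193). The later replicates gave -0.57 and the first pair -0.03. On its own strand it shares 305 exon bases with the protein-coding gene Gm49711 and 159 with Slc5a3. Slc5a3, an inositol transporter gene, had a log2 fold change of -0.56 over all replicates, and -0.76 and -0.13 in the same sets. The part of shared reads in the Mrps6 value was not tested. Mrps22 ranged from 7.38 through 10.7 to 11.4 CPM in FI3KO and from 10.6 through 14.0 to 15.4 CPM in WT (-0.37 ± 0.12 SE, edgeR adjusted p = 0.0282). Here the sets gave -0.38 and -0.33.

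**Figure D3:**
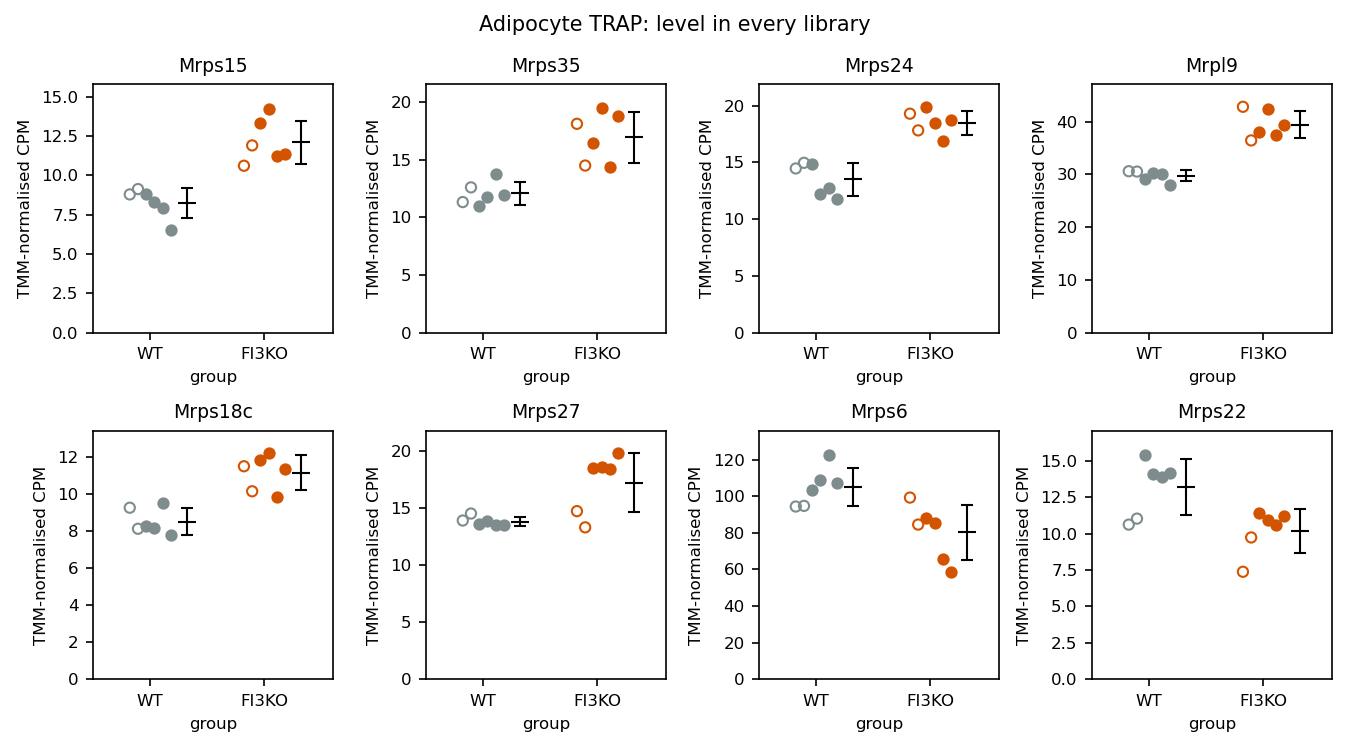
TMM-normalised CPM (y axis, from 0) of 8 genes in each WT (grey) and FI3KO (orange) TRAP library, with open circles for replicates 1 and 2, filled circles for replicates 3 to 6, and the mean and SD (n = 6) in black. Mrps15, Mrps35, Mrps24, Mrpl9 and Mrps18c show no overlap between the genotypes, which was a condition for naming them. Mrps27, Mrps6 and Mrps22 were not chosen by that rule: Mrps27 is higher in FI3KO replicates 3 to 6, and Mrps6 and Mrps22 overlap.

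The genotype effect was tested for a difference between the 2 sets of replicates in each gene. It was called for 2 members, Mrps27 and Mrpl49, while 26.5% of all genes tested were called. Mrps27 ranged from 18.4 to 19.8 CPM in FI3KO replicates 3 to 6 and was at 14.7 and 13.3 CPM in FI3KO replicates 1 and 2, and all WT libraries lay between 13.5 and 14.5 CPM. The log2 fold changes were 0.47 and -0.01 (edgeR interaction term, adjusted p = 0.00498). Mrpl49 had log2 fold changes of 0.13 and -0.26 (edgeR interaction term, adjusted p = 0.0469).

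Lists of other mitochondrial and translation genes were counted in the same TRAP libraries. Nuclear-encoded respiratory chain genes had 53 of 79 called higher, with a median log2 fold change of 0.28, and none was called lower by edgeR or DESeq2 or had an unadjusted p under 0.05 in that direction. Replicates 3 to 6 gave 62 higher (78.5%, against 25.7% of all genes in that fit) and a median of 0.39. Replicates 1 and 2 gave 0 called, with 15 higher and 3 lower at an unadjusted p under 0.05 and a median of 0.16. The genotype effect differed between the sets for 22 of these genes (27.8%, near the 26.5% of all genes tested). Cytosolic ribosomal protein genes had 33 of 77 called higher and 0 lower (also 0 lower by DESeq2 and at an unadjusted p under 0.05), with a median of 0.18. In replicates 3 to 6 this list had 31 higher and 1 lower, with a median of 0.15. Replicates 1 and 2 gave 2 higher and 0 lower, with a larger median of 0.26. There 40 were higher and 0 lower at an unadjusted p under 0.05, against 14.9% and 14.2% of all genes. Translation factors had 7 of 18 called higher and 0 lower (0 also by DESeq2 and at an unadjusted p under 0.05). Assembly factors had 10 of 35 called higher (28.6%, against 19.1% of all genes) and 1 lower. In replicates 3 to 6, 8 translation factors (44.4%) were called higher and 0 lower, and 13 assembly factors (37.1%) higher and 3 lower (8.57%). Of all genes, 25.7% and 24.8% were called there. In replicates 1 and 2, 0 and 1 were called higher and 0 lower, against 1.58% and 1.98% of all genes. At an unadjusted p under 0.05, 2 translation factors were higher and 0 lower there, and 4 assembly factors higher and 1 lower. Trub2, a pseudouridine synthase of mitochondrial RNA, rose from a mean of 51.1 to 98.5 CPM (0.95 ± 0.11 SE, edgeR adjusted p = 0.000131). Mettl17 rose by 0.61, Cox14 by 0.49, Gtpbp6 by 0.46 and Ngrn by 0.43 on the log2 scale, and Fastkd3 fell by 0.34. Of the other mitoribosomal proteins, Gadd45gip1 rose by 0.31, Chchd1 by 0.24 and Aurkaip1 by 0.20, Ptcd3 fell by 0.15, and Dap3 had a log2 fold change of -0.03. Of 27 alternative fits, Gadd45gip1 was called in 26, Ptcd3 in 17, Aurkaip1 in 13 and Chchd1 in 7. The mRNAs of mitochondrial DNA had 3 of 13 called higher (23.1%) and 2 lower (15.4%), against 19.1% and 18.3% of all genes, with a median of 0.08. By set their median was -0.02, with 2 higher and 2 lower, and 0.26, with 0 called by edgeR and 3 higher and 0 lower at an unadjusted p under 0.05. Their summed level was only 180 to 264 CPM in FI3KO and 190 to 234 CPM in WT TRAP. In WT SVF cells it was 21115 to 23068 CPM. Mitochondria translate these mRNAs on their own ribosomes, and how they came into the TRAP RNA was not tested. The 5 mitoribosomal proteins with other symbols had 2 called higher and 1 lower in replicates 3 to 6, and 0 called, also at an unadjusted p under 0.05, in replicates 1 and 2.

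Of the 11 regulators, Nrf1 was called higher (0.32 ± 0.07 SE, edgeR adjusted p = 0.00459). Yy1 was called lower (-0.20 ± 0.05 SE, edgeR adjusted p = 0.0130), as was Nfe2l2 (-0.32), a list member named after its value was seen. Ppargc1a had a log2 fold change of 0.41 (adjusted p = 0.0579), Ppargc1b of 0.28, Gabpa of 0.05, Esrra of 0.07, Myc of -0.08 and Atf4 of 0.07, and none of these was called. Among the 16 genes for mitochondrial DNA upkeep and transcription, 4 were called higher (25%, against 19.1% of all genes) and 1 lower (6.25%, against 18.3%), and Tfam rose by 0.36. The regulators had 3 higher (27.3%) and 2 lower (18.2%) in replicates 3 to 6, near the 25.7% and 24.8% of all genes called there, and 0 called in replicates 1 and 2 (0 higher and 2 lower at an unadjusted p under 0.05). For the mitochondrial DNA genes it was 4 higher (25%) and 3 lower (18.75%), also near those shares, and 0 called (2 higher and 3 lower at an unadjusted p under 0.05). Markers of other cells differed with genotype in replicates 3 to 6, with other values in replicates 1 and 2. The sum of 12 macrophage markers was 16.3 to 47.5 CPM in FI3KO and 39.3 to 95.6 CPM in WT, with 8 of the 10 tested called lower, 1 called higher and none at 0 in all libraries. The sum of 8 preadipocyte and fibroblast markers was 546 to 1080 and 974 to 2175 CPM, with 1 of 7 tested called higher and 2 lower. The sum of the adipocyte markers was 34840 to 37730 and 36418 to 41335 CPM, although 6 of 12 were called higher and 1 lower, with a median of 0.28. Cycling-cell markers summed to 1.98 to 4.89 and 4.14 to 10.5 CPM, with 3 of 4 tested called lower. Macrophage markers had a median of -2.38 on the log2 scale in replicates 3 to 6, preadipocyte and fibroblast markers of -0.97, adipocyte markers of 0.48 and cycling-cell markers of -1.76. In replicates 1 and 2 these medians were 0.36, 0.39, -0.14 and 0.09. FI3KO replicates 1 and 2 also stood apart in endothelial markers, at 38.4 and 68.9 CPM against 15.2 to 27.3 CPM in the other 10 TRAP libraries, and in epididymal markers, at 1.343 and 1.397 CPM against 0 to 0.067 CPM. Their part in the values above was not tested.

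The comparisons were read side by side because no library is shared between them. 8 members were higher in both: Mrpl18, Mrpl51, Mrpl54, Mrps7, Mrps16, Mrps18c, Mrps26 and Mrps34. They are 10.3% of the members, against 3.44% of the 13093 genes tested in both. They are also 38.1% of the members called higher in FI3OE, where 37.2% of all 78 members were called higher in FI3KO, so higher members of the first comparison held about the family's share of the second. Of these, Mrps7 and Mrps18c were also called in both over protein-coding transcripts alone. There Mrps26 turned to -0.29 in SVF cells (edgeR adjusted p = 0.300). In TRAP Mrps26 was at 0.52 there, against 0.35 over all transcripts, but was not called (edgeR adjusted p = 0.0724). Mrps16 was at 0.03 (adjusted p = 0.915) and 0.05 (adjusted p = 0.875) there, and so called in neither. 3 were lower in FI3OE and higher in FI3KO: Mrpl38, Mrps25 and Mrps27 (3.85%, against 4.19% of all genes). In TRAP, Mrps27 was at 0.47 in replicates 3 to 6 and at -0.01 in replicates 1 and 2. 2 were higher in FI3OE and lower in FI3KO: Mrps6 and Mrps22 (2.56%, against 6.28%). 11 were called higher in FI3OE only (14.1%, against 12.7%), 18 higher in FI3KO only (23.1%, against 11.9%) and 2 lower in FI3OE only (2.56%, against 11.6%), and 34 were called in neither. Mrpl27, first in the SVF cells, had a log2 fold change of -0.11 in TRAP (adjusted p = 0.134). Mrps35 and Mrpl9, among the leading rises in TRAP, had log2 fold changes of -0.12 and 0.02 in SVF cells, and neither was called. Differences between the experiments were not tested.

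**Figure D4:**
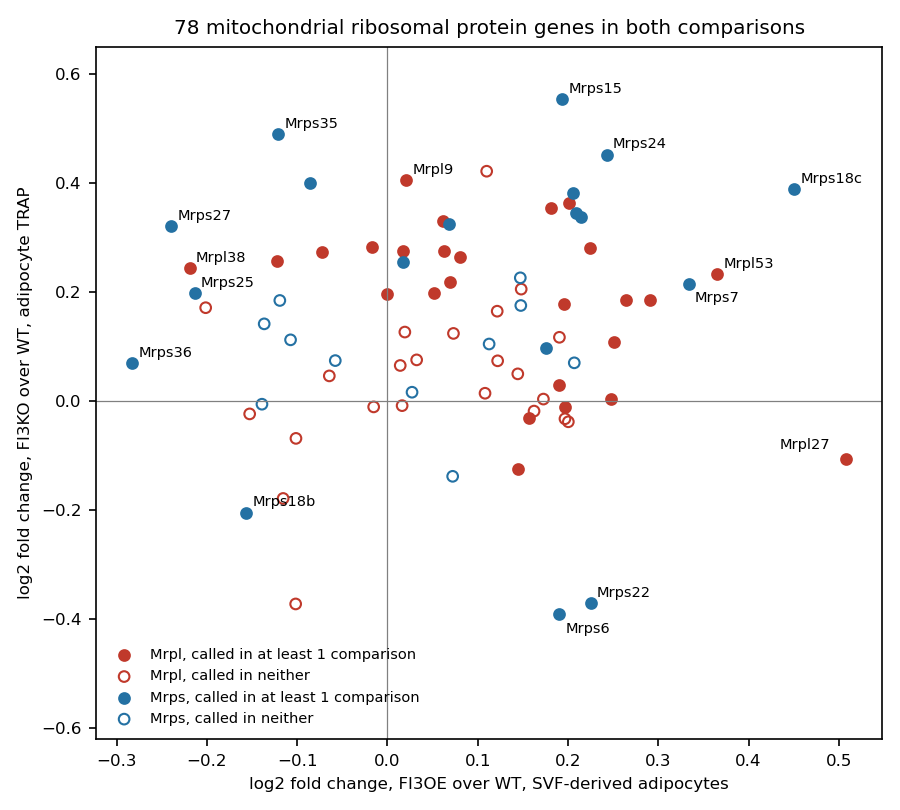
Log2 fold change in the SVF comparison (x axis) against that in the TRAP comparison (y axis) for the 78 genes, with Mrpl genes in red, Mrps genes in blue, and filled points for genes called in at least 1 comparison. Mrps18c lies high on both axes at 0.45 and 0.39, Mrpl27 on the x axis alone, and Mrps27, Mrpl38 and Mrps25 to the upper left.

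Large and small subunit were then set against each other. In SVF cells the large-subunit symbols had 13 of 49 genes higher and 1 lower, with a median log2 fold change of 0.11, and the small-subunit symbols 8 of 29 higher and 4 lower, with a median of 0.07. Higher calls made up 26.5% and 27.6%, against 20.2% of all genes, and lower calls 2.04% and 13.8%, against 16.8%. In TRAP the large-subunit symbols had 16 of 49 higher and 0 lower, with a median of 0.12, and the small-subunit symbols 13 of 29 higher and 2 lower, with a median of 0.18, or 32.7% and 44.8% higher against 19.1% of all genes. Lower calls made up 0% and 6.90%, against 18.3% of all genes. Over protein-coding transcripts alone the TRAP medians were 0.069 and 0.173, and the SVF medians 0.070 and 0.027. In replicates 3 to 6 the large subunit had 15 higher (30.6%) and 1 lower and the small subunit 14 higher (48.3%) and 3 lower, against 25.7% and 24.8% of all genes in that fit. In replicates 1 and 2 edgeR called 0 in both, with 10 higher and 1 lower, and 7 higher and 0 lower, at an unadjusted p under 0.05. The 0 lower in the large subunit was also 0 by DESeq2 and at an unadjusted p under 0.05, but in replicates 3 to 6 alone Mrpl15 was called lower (-0.30, edgeR adjusted p = 0.0325), a gene named after its value was seen. The medians of large and small subunit were 0.13 and 0.22 in replicates 3 to 6 and 0.13 and 0.09 in replicates 1 and 2. The order of the latter pair rested on the symbols, since by place in the ribosome replicates 1 and 2 gave 0.11 and 0.19.

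Per library, the mean log2 level of the Mrpl genes minus that of the Mrps genes was 0.006, 0.021 and 0.031 in FI3OE and -0.021, 0.001 and -0.026 in WT SVF cells. The groups did not overlap, with means of 0.019 and -0.015. Counted by place in the ribosome they did overlap, at -0.017, -0.001 and 0.014 in FI3OE and -0.023, 0.003 and -0.028 in WT. In TRAP the difference ranged from 0.004 through a median of 0.036 to 0.079 in FI3KO and from 0.065 through 0.084 to 0.118 in WT, with overlap. By place, the TRAP medians of log2 fold change were 0.13 for 51 large-subunit and 0.19 for 26 small-subunit genes, and in SVF cells 0.11 and 0.09.

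**Figure D5:**
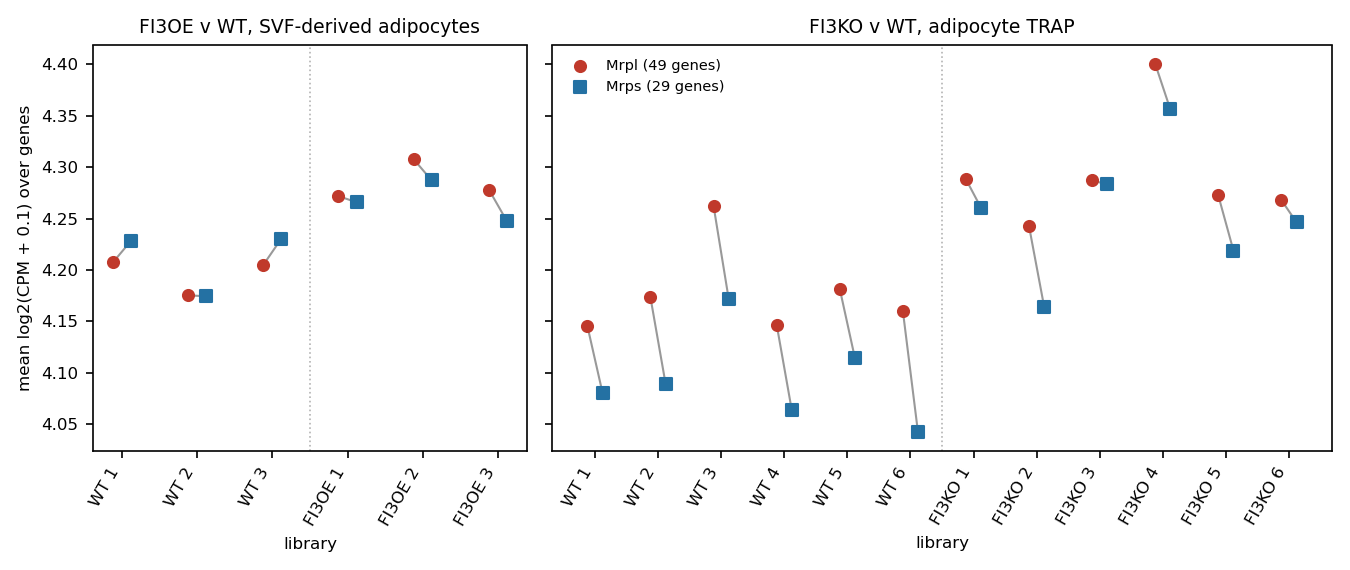
Mean log2(CPM + 0.1) over 49 Mrpl genes (red circles) and 29 Mrps genes (blue squares) in every library (x axis) of the SVF experiment (left) and the TRAP experiment (right), with a grey line joining the 2 means of a library. FI3KO replicate 4 has the highest means, and the gap between subunits is at most 0.12 in any library.

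Members with a bacterial counterpart and mitochondria-specific members were also counted apart. In SVF cells 13 of 45 bacterial-type genes were higher and 0 lower by edgeR (2 lower at an unadjusted p under 0.05 and 0 by DESeq2), against 8 higher and 4 lower of 32 mitochondria-specific genes. Their medians were 0.07 and 0.12. The shares called higher were 28.9% and 25%, against 20.2% of all genes, and those called lower 0% and 12.5%, against 16.8%. Mrps18a and Mrps18b were counted as mitochondria-specific, though they are versions of a bacterial protein, and Mrps18b was among the lower calls. In TRAP the counts were 17 higher and 1 lower, and 12 higher and 1 lower, with medians of 0.12 and 0.18, or 37.8% and 37.5% higher against 19.1% of all genes. The lower calls were 2.2% and 3.1%, against 18.3% of all genes. Replicates 3 to 6 gave 16 higher (35.6%) and 2 lower, and 13 higher (40.6%) and 2 lower, against 25.7% and 24.8% of all genes in that fit. Replicates 1 and 2 gave 0 called by edgeR, with 9 higher and 0 lower, and 8 higher and 1 lower, at an unadjusted p under 0.05. 24 of the genes called higher in TRAP had a promoter window, and 16 of these (66.7%) held an ETS, NRF1 or YY1 motif, against 26 of 43 (60.5%) that were not called. In the SVF comparison it was 14 of 18 (77.8%) against 27 of 47 (57.4%). Among the genes called lower, 1 of 2 windows in TRAP and 2 of 4 in the SVF comparison held such a motif. These shares rest on small counts, and the differences between them were not tested.

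Levels differed far more between members than between groups. On the TPM scale, which is per transcript length, the means of the 78 genes in WT SVF cells ran from 9.27 for Mrpl19 to 177 for Mrpl17, with a median of 43.2. In WT TRAP they ran from 5.33 for Mrpl19 to 338 for Mrps6, with a median of 49.4. The highest levels in WT SVF cells after Mrpl17 were those of Mrpl30 at 168 ± 7.3 TPM (SD, n = 3), Mrpl12 at 134 ± 10.7, Mrps21 at 116 ± 7.2 and Mrpl33 at 111 ± 1.9, and the last pair differed by less than the SD of Mrps21. The lowest after Mrpl19 were Mrps31 at 14.0, Mrpl46 at 14.4, Mrpl1 at 14.5 and Mrpl39 at 16.4 TPM, each within the larger SD of the next in this order. In WT TRAP, Mrps6 at 338 ± 33 TPM (SD, n = 6) was followed by Mrpl17 at 279 ± 16, Mrps21 at 208 ± 18, Mrpl33 at 150 ± 8.6 and Mrps14 at 143 ± 8.0, the last pair within 1 SD of each other. The lowest after Mrpl19 were Mrpl39 at 9.35, Mrpl47 at 10.2, Mrpl1 at 10.2 and Mrps31 at 11.9 TPM, of which the first 3 lay within 1 SD of each other.

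Between the WT groups the Spearman correlation of the levels over 78 genes was 0.86, as a description, since transcript models and their lengths are shared. Mrps6, the highest member in WT TRAP, was at 69.7 ± 2.9 TPM in WT SVF cells, where 18 members stood above it, and 4.85-fold higher in WT TRAP. These libraries differ in cell source and RNA fraction, and the levels were not tested against each other. 30 members share exon bases with another gene in the tables, 5 of them on the same strand, and 14 have a near-identical transcript annotated for another gene, mostly a pseudogene, so their values carry that uncertainty.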

How the data were processed

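RNA was rRNA-depleted, amplified with 12 PCR cycles in an unstranded kit and sequenced. Per the labels and the study's methods, the authors trimmed reads with fastp, dropped those under 24 nt, and quantified them with Salmon 1.4.0 against GENCODE M24 (GRCm38) with sequence and GC bias correction. The deposited files hold, per transcript and library, the authors' estimated counts, not normalized and not whole, and TPM (abundance per transcript length).

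Here estimated counts of 118733 transcripts were summed to 33440 genes through GENCODE M21, which matched 99.26% of them, and rounded to whole numbers. TPM were summed per gene for levels only. edgeR 4.0.16 (R 4.3.3) was run per experiment on all genes, with its expression filter, TMM scaling, the quasi-likelihood test without covariates and Benjamini-Hochberg adjustment. A gene was called at an adjusted p of at most 0.05. DESeq2 1.42.0 was an alternative. On simulated counts of 15889 genes for the SVF design, 32% of genes changed 1.2-fold and 72% of those changed 1.5-fold were recovered. On 13453 genes for the TRAP design these were 4% and 54%. Only 50 genes were changed at each fold change, and 144 and 106 genes were called in the 2 simulations. In the data 37.0% and 37.4% of all genes were called. The adjusted p cutoff was thus stricter in the simulations, and the shares recovered do not give those of the data. The genes named were up to 8 with the largest change in each direction among members called, not overlapping between groups and at a mean of at least 1 CPM, together with the 5 highest and 5 lowest by TPM, up to 5 called factors each way, and set lists of companions and regulators. Nfe2l2 and the genes that overlap or neighbour a member were named after their values were seen. Near-identical transcripts were found with BLAST 2.17.0, and scripts ran in Python 3.11.15 with pandas 2.3.3. The members and lists were chosen with earlier results of these data known. The p-values measure the spread between these libraries only.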

Additional observations from a re-analysis of the deposited data

Results flagged for a closer look

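4 values stood out. Aurkaip1, a small-subunit protein with another symbol, was at 36.67 CPM in WT TRAP replicate 4, while the other 5 WT TRAP libraries lay between 39.91 and 40.74 CPM. The mean log2 level of the 78 mitochondrial ribosomal protein genes was 4.229 in WT TRAP replicate 3, against 4.116 to 4.157 in the other WT TRAP libraries. 44 groups of values were examined for such a gap, of which chance alone marks about 1 in 20, or 2.2.

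The genotype effect differed between the sets of TRAP replicates for Mrps27, by 0.4917 on the log2 scale (edgeR interaction term, adjusted p = 0.00498), and for Mrpl49, by 0.3976 (edgeR interaction term, adjusted p = 0.0469), each being higher in replicates 3 to 6 than in replicates 1 and 2. Macrophage marker sums were 16.3 to 18.9 CPM in FI3KO replicates 3 to 6, against 71.3 to 95.6 CPM in WT. In replicates 1 and 2 they were 37.1 and 47.5 CPM in FI3KO, against 39.7 and 39.3 CPM in WT. Their part in the difference was not tested.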

How the results depend on the processing

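Counts of calls moved with several settings, and the cause was not tested unless stated. In SVF cells the 21 higher and 5 lower genes became 7 and 1 with DESeq2, 11 and 5 over protein-coding transcripts alone, 6 and 3 with a transcript length offset, 10 and 8 with upper-quartile factors, and 0 and 0 at a log2 fold change of at least 1. Leaving out 1 library gave 9 to 16 higher and 3 to 4 lower, with medians of 0.06851 to 0.1077 for all, 0.0808 to 0.1115 for large-subunit and 0.04176 to 0.1068 for small-subunit genes. The medians for all, large and small subunit were 0.04132, 0.06968 and 0.02656 over protein-coding transcripts, and 0.05781, 0.07148 and 0.0356 with upper-quartile factors, which moved the median of all genes tested by -0.037. With the length offset they were 0.1214 for all and 0.1365 for the large subunit. No scaling moved the median of all genes by more than 0.1, but the members' medians were only 0.09 in SVF cells and 0.15 in TRAP. In TRAP, library size alone moved the median of all genes by -0.046, and the members' median was 0.108 there.

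In TRAP the 29 higher and 2 lower genes became 0 and 0 in replicates 1 and 2, 29 and 4 in replicates 3 to 6, 0 and 0 at a log2 fold change of at least 1, and 25 and 1 without a filter. Leaving out 1 library gave 23 to 30 higher and 1 to 3 lower. The large-subunit median was 0.06924 over protein-coding transcripts, and the small-subunit median 0.08817 in replicates 1 and 2. The fit that counts WT replicates 1 and 2 as 1 library was chosen after seeing the data.

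Replicate numbers did not pair the samples: the correlation of same-numbered deviations was 0.01541, -0.04576 and -0.02161 in SVF cells and -0.2925 to 0.1043 in TRAP. With the replicate block, 17 genes were higher and 1 lower in TRAP, and 16 and 4 in SVF cells. Esrra in TRAP was at -0.0929 with the block.

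2 called members changed sign: Mrps26 in SVF cells was at -0.2879 over protein-coding transcripts, and Mrps27 in TRAP at -0.01478 in replicates 1 and 2. Nrf1 in SVF cells was at 0.0465 with the length offset. The other sign changes were of genes that were not called. In SVF cells Dap3 was at -0.001864 with RLE factors, -0.0007468 with at least 10 reads in every library, -0.01472 with library size alone, -0.01419 over protein-coding transcripts, -0.001635 without rRNA and mitochondrial-genome genes, -0.03511 with the length offset, -0.03402 with upper-quartile factors, and -0.0081 to 0.016 leaving out 1 library. Over protein-coding transcripts Mrpl57 was at -0.1039, Chchd1 at -0.05096 and Gadd45gip1 at -0.008716. Gadd45gip1 was at -0.007295 with upper-quartile factors and at -0.019 to 0.096 leaving out 1 library. In TRAP replicates 1 and 2, Mrps30 was at -0.002149, Mrps18a at -0.0169, Mrps18b at 0.01923, Mrps36 at -0.1927, Dap3 at 0.0439, Ppargc1a at -0.08701, Gabpa at -0.175, Esrra at -0.3134 and Myc at 0.1128. Atf4 was at -0.03501 in replicates 3 to 6. Leaving out 1 TRAP library, Esrra ran from -0.049 to 0.27 and Myc from -0.21 to 0.054.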
